A study of Homo sapiens with 6 samples.

Results

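The genes described here make cholesterol and fatty acids or control that synthesis through SREBP. They are 30 of the 19823 genes in the expression table and were chosen by name, by their known place in the pathway. All 30 were present, and all 30 lay above the limit on low counts (more than 5 reads in at least 4 samples), as did 18130 genes in all. They comprise 19 enzymes of sterol synthesis, 5 genes of SREBP control (INSIG1, INSIG2, SCAP, SREBF1 and SREBF2), the sterol carrier STARD4 and 5 lipid synthesis targets (LPIN1, FASN, SCD, ACLY and ACACA).

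The study sequenced poly(A) RNA from 6 samples of human glutamatergic neurons (iNeurons) grown from the induced pluripotent stem cell line WTc11. Both groups were depleted of RBM12, an RNA-binding protein, by CRISPR interference: 3 samples were untreated and 3 received isoproterenol, an agonist of the β2-adrenergic receptor, which raises cAMP. The neurons came from the parental line, a single clone that carries dCas9-KRAB and doxycycline-inducible NGN2 and that, per the study, has few receptors of its own. Samples with a control guide were not analysed here. The labels give the replicates of each group the numbers 1 to 3 but state neither the dose of isoproterenol nor how long it was applied. They do not say whether replicates came from separate cultures, so p-values measure the spread between these samples, which may be technical. The tests used also borrow variance from other genes, so SEs, intervals and p-values rest only partly on a gene's own samples.

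Cells sense cholesterol in the membrane of the endoplasmic reticulum. When it is low, the escort protein SCAP carries the SREBP precursors to the Golgi, where they are cut, and the freed part enters the nucleus and switches on the genes of sterol and fatty acid synthesis. When it is plentiful, INSIG proteins hold SCAP back. INSIG1 is itself a target of SREBP, and its transcript is widely used as a readout of the pathway. Neurons in culture make much of their own cholesterol, which they need for membranes and synapses.

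Depth ran from 18116816 to 21488793 reads per sample. Values per sample are normalized counts and are listed in the order of the replicate numbers. A log2 fold change is the mean difference, treated less untreated, on the log2(normalized count + 1) scale. RBM12 itself lay between 194.6 and 278.7 normalized counts in the 6 samples, and without a control guide the extent of its depletion could not be measured. The neuronal markers SLC17A6, SLC17A7, MAP2, RBFOX3, SYN1 and SNAP25 were abundant in every sample, whereas TUBB3 lay between 69.2 and 94.37 and NEUROD2 between 3.103 and 10.38. TUBB3 shares 21.3% of its exon bases with another annotated gene on the same strand, ENSG00000198211, so its level is uncertain. Of the 8 immediate early genes taken as a check of the treatment, 8 were higher with isoproterenol in all 3 same-numbered pairs, as were 3353 of the 18130 genes tested. These 8 were chosen with earlier results of these data known, so their rise is no independent test. Among them, FOS had 535.7, 648.3 and 679.6 normalized counts untreated and 1219, 1649 and 2338 with isoproterenol.

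The promoters of INSIG1, HMGCS1, SREBF2 and the members MVK, LPIN1 and STARD4 are shown because the results turn on these genes. Each sequence runs 5′ to 3′ on the strand of its gene (RefSeq, build GRCh38.p14) and is the longest stretch of up to 200 bases, within the 250 bases before the start, that holds no annotated exon of that gene. The start is that of RefSeq, which of these genes matches the GENCODE start for SREBF2 alone. For the others it lies inside the gene as GENCODE annotates it, so part of the 250 bases is annotated exon. For LPIN1 and MVK (from 11677595 on chromosome 2 and from 109573255 on chromosome 12 in GENCODE), the stretches shown precede internal starts. Capitals mark the sterol regulatory element TCACNCCAC, the CCAAT box (CCAAT, or ATTGG on the other strand), the GC box (GGGCGG, or CCGCCC on the other strand) and TGACG (or CGTCA), part of the cAMP response element TGACGTCA. The coordinates are chr7:155297628-155297775 (plus strand) for INSIG1, chr5:43313513-43313662 (minus strand) for HMGCS1, chr22:41832905-41833104 (plus strand) for SREBF2, chr12:109573593-109573792 (plus strand) for MVK, chr2:11746388-11746587 (plus strand) for LPIN1 and chr5:111512591-111512785 (minus strand) for STARD4.
INSIG1: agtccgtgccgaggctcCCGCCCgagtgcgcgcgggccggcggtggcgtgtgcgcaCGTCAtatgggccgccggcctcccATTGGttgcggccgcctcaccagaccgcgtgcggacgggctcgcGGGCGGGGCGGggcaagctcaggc
HMGCS1: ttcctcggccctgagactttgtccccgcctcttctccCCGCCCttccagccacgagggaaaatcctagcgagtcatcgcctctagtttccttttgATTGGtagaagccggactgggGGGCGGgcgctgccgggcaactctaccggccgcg
SREBF2: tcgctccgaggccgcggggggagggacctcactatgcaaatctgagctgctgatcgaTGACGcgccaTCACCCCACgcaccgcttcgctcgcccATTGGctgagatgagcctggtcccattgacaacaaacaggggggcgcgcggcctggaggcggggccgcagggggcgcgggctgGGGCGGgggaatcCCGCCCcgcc
MVK: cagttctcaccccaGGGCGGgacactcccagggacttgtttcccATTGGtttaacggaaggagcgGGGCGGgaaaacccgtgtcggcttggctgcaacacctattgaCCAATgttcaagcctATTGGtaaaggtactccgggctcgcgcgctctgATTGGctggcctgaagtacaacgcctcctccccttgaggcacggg
LPIN1: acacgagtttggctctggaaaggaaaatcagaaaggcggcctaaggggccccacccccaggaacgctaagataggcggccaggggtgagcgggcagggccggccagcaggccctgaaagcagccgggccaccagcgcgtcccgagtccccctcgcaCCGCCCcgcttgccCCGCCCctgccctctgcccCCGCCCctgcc
STARD4: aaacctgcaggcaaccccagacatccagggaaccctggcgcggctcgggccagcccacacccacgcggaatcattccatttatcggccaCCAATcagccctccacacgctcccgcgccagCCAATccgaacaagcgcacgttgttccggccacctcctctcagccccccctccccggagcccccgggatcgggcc
SREBF2, which encodes SREBP-2 and is regulated by its own product, carried the sterol regulatory element at bases -133 to -125 from its start, the single member of 26 matched to the promoter table with these letters in its 250 bases (0.88% of 27305 promoters hold them). CCAAT was found in 17 of the 26 (65.4%, against 33.04% of all promoters), and 5 times in the 250 bases before MVK. GGGCGG was found in 24 (92.3%, against 42.31%). The full TGACGTCA was found in 0 of the 26 (1.77% of all promoters) and its part TGACG in 11 (42.3%, against 21.66%), among them INSIG1 and SREBF2 but not HMGCS1, MVK, LPIN1 or STARD4. CACGTG, the E-box, was found in 3 (11.5%, against 6.49%), namely SC5D, INSIG1 and SCAP. Both strands were searched, TGACG also lies within TGACGTCA, and a match of letters says nothing of binding. Only exact letters were searched, so the lack of a match does not show that an element is absent. The 27305 promoters were not limited to genes expressed in these neurons or to coding genes. Their shares are thus no matched background for the 26 members, which are all expressed, and the differences were not tested. ACAT2, FDFT1, SQLE and FASN were not matched.

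Averaged over the 6 samples, 27 of the 30 members had 500 normalized counts or more, as did 7140 of the 18130 genes tested. This limit was chosen after the values were seen. In untreated neurons the levels ranged widely between members. Levels per kilobase of exon allow a rough comparison of genes. Exons of all annotated transcripts were merged for this, so a gene whose expressed transcripts are shorter reads too low. These levels ran from 55.7 ± 5.67 normalized counts for CYP51A1 to 5348 ± 142 for SCD (SD, n = 3), a 96.0-fold range. SCD, the desaturase that makes monounsaturated fatty acids, was followed by HMGCS1 (4240 ± 139), the cytosolic HMG-CoA synthase. Next came FASN (3014 ± 136), the fatty acid synthase, and ACLY (2811 ± 129), which makes cytosolic acetyl-CoA. The gap between FASN and ACLY was smaller than their SDs together. Of the pair of SREBP genes, SREBF2 (1539 ± 75.7), whose product acts mainly on sterol genes, stood far above SREBF1 (126 ± 8.51), whose product acts mainly on fatty acid genes. INSIG1 (1089 ± 98.7) likewise stood above INSIG2 (156 ± 8.56). At the low end, LPIN1 (78.7 ± 5.49) and GGPS1 (76.8 ± 7.65) did not differ beyond their spread, and CYP51A1 lay below both. Annotated genes on the same strand share 37.3% of the exon bases of GGPS1 and up to 68.2% of those of CYP51A1. The levels of GGPS1 and CYP51A1, and with them the low end of the range, are therefore uncertain.

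**Figure D1:**
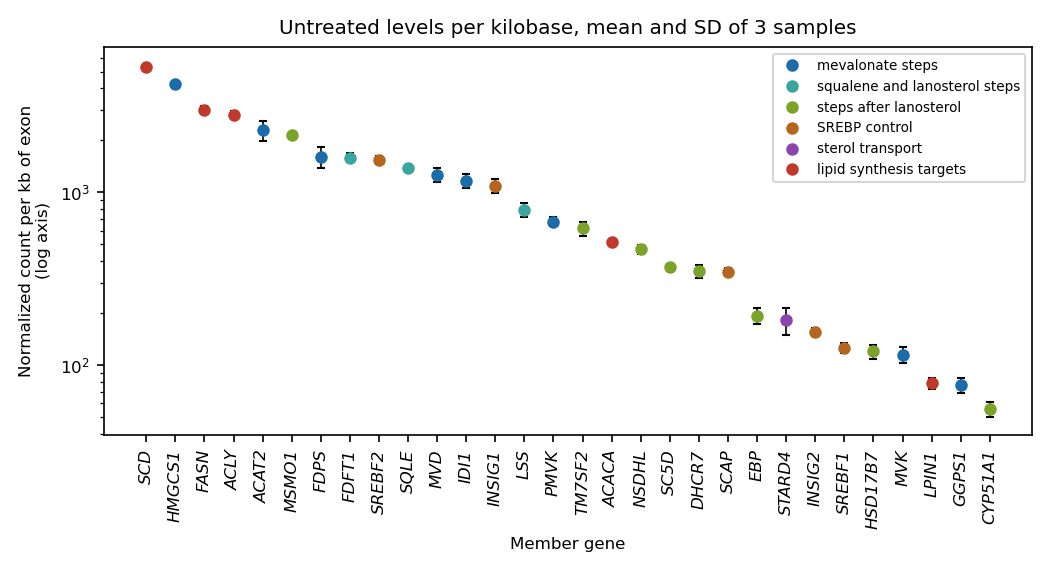
Untreated level of each of the 30 members in normalized counts per kilobase of exon (log axis), as the mean and SD of 3 samples, ordered from highest to lowest and colored by role. SCD and HMGCS1 lead with 5348 and 4240, SREBF2 lies at 1539 against 126 for SREBF1, and CYP51A1 is lowest at 55.7. The levels of CYP51A1 and GGPS1 are uncertain, since other annotated genes on the same strand share their exons.

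The single contrast of the design asks which transcripts respond to isoproterenol in RBM12-depleted neurons. Across the pathway the changes were small. Without regard to the replicate numbers, 0 of the 30 members passed FDR 0.05 (limma, Benjamini-Hochberg over 18130 genes), where 3 genes of the whole table (0.0165%) did. The lowest adjusted p of a member was 0.205. edgeR and DESeq2 without the replicate numbers also called 0 of the 30 (0.0165% and 0.116% of all genes). At an unadjusted p under 0.05 there were 3 members, HMGCS1, MVK and LPIN1 (10.0%, against 7.68% of all genes), and in 3 members (10.0%) the groups did not overlap, against 12.9% of all genes. The log2 fold changes of the members ran from -0.14 (HMGCS1) to 0.17 (MVK). Their median was 0.0044, against 0.0015 over all genes tested, and the median of their absolute size was 0.039, against 0.087.

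Same-numbered samples deviated together in the table as a whole, so the contrast was also fitted with replicate number as a block. With the block 5 of the 30 members (16.7%) passed FDR 0.05 in limma, against 4.88% of all genes and 9.22% of the 7140 genes that averaged 500 normalized counts or more, a range that holds 27 of the members and was chosen after the values were seen. Levels within this range were not matched to those of the members. INSIG1, MVK, STARD4 and LPIN1 rose (2.82% of all genes did) and HMGCS1 fell (2.06%). edgeR with the block called the same 5 (5.39% of all genes), whereas DESeq2 with the block called HMGCS1 alone (0.789%). In limma with the block, 1, 2 and 4 members passed when pair 1, 2 or 3 was left out. At an unadjusted p under 0.05 there were 10 members with the block (16.2% of all genes). In 17 members (56.7%) the 3 pairs moved in 1 direction, 11 higher and 6 lower with isoproterenol, against 36.1% of all genes.

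**Figure D2:**
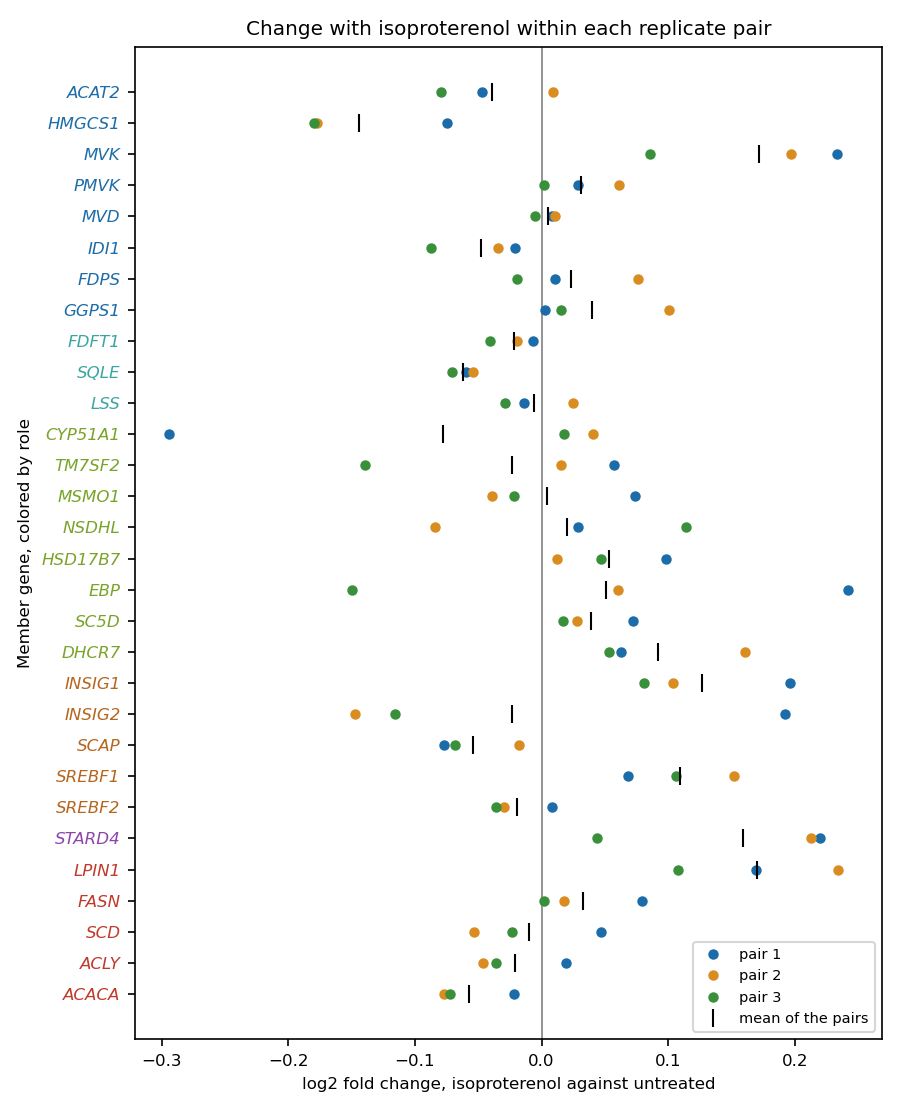
Log2 fold change of each of the 30 members, isoproterenol against untreated, in each replicate pair (colored points) and as the mean of the 3 pairs (black bars), with gene names colored by role. HMGCS1 lies below 0 in the 3 pairs and INSIG1, MVK, LPIN1 and STARD4 above 0, while the means of the other members, except SREBF1, lie within 0.1 of 0.

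HMGCS1 showed the clearest change. It encodes the enzyme that joins acetyl-CoA and acetoacetyl-CoA into HMG-CoA, at the entry to the mevalonate pathway. The gene (ENSG00000112972) lies on chromosome 5 from 43287470 to 43313512 (GRCh38), and its promoter above held a CCAAT box and GC boxes. Its level was 27170, 28120 and 29010 normalized counts untreated and 25790, 24880 and 25610 with isoproterenol. The groups did not overlap, and the isoproterenol sample was lower in each pair, at -0.075, -0.177 and -0.18 on the log2 scale. The log2 fold change was -0.14 (SE 0.033), a change of -9.49%. With the block the limma SE was 0.017, which borrows variance from other genes. HMGCS1 did not pass FDR 0.05 without the block (limma adjusted p 0.205) and passed with it (3.36e-10 in limma, 1e-09 in edgeR and 0.000827 in DESeq2, each adjusted). It also passed in limma with the block after any 1 pair was left out (log2 fold change -0.18 to -0.13). A lncRNA on the other strand, ENSG00000261604, shares 2497 bases with its exons (37.7% of them) and lay between 1.153 and 5.172 normalized counts.

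Of the other 7 genes of the mevalonate steps, 1 passed with the block. MVK, the mevalonate kinase, rose in each pair, from 1031, 932.8 and 1146 normalized counts untreated to 1211, 1069 and 1217 with isoproterenol. The groups overlapped, since untreated replicate 3 lay above isoproterenol replicate 2. Its log2 fold change was 0.17 (SE 0.074, limma adjusted p 0.605), and with the block the SE was 0.048 and the adjusted p 0.0161 (0.566 in DESeq2). Leaving out pair 1 or pair 2 ended the call with the block. The start of MVK lies head to head with that of MMAB, which encodes an enzyme of cobalamin metabolism, and 225 bases of their exons overlap on opposite strands. MMAB had 1254, 1247 and 1344 normalized counts untreated and 1380, 1267 and 1299 with isoproterenol. Its log2 fold change was 0.037 (limma with the block, SE 0.045, adjusted p 0.767), and the difference between MVK and MMAB was not tested.

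The remaining mevalonate genes had log2 fold changes between -0.048 (IDI1, which isomerizes the isoprene unit) and 0.040 (GGPS1, which makes geranylgeranyl diphosphate). MVD, which makes that unit, had a value of 0.0050 (95% interval with the block -0.046 to 0.055). FDPS, the farnesyl diphosphate synthase, had a value of 0.023 (-0.028 to 0.073). ACAT2, which makes acetoacetyl-CoA, had a value of -0.039 (-0.090 to 0.012). PMVK, which phosphorylates mevalonate further, had a value of 0.031 (-0.086 to 0.147). The value of GGPS1 is uncertain, since 37.3% of its exon bases are shared with another annotated gene on the same strand, ENSG00000285053.

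The 11 genes from squalene onward did not pass FDR 0.05 with or without the block (limma). Of these, 2 had an unadjusted p under 0.05 with the block, SQLE and DHCR7, and edgeR and DESeq2 called 0 with or without it. SQLE, the squalene epoxidase, is a regulated step of the pathway. It lay at 5990, 5634 and 6183 normalized counts untreated and 5744, 5427 and 5888 with isoproterenol. The groups overlapped, although SQLE was lower in each pair by a similar amount (log2 fold change -0.062, blocked SE 0.025, limma adjusted p 0.785 and 0.170 with the block). FDFT1, the squalene synthase, had a value of -0.022 and LSS, which closes the sterol rings, had -0.0060. DHCR7, which catalyzes a last step to cholesterol, had the largest positive value after lanosterol (0.092, higher in 3 of 3 pairs, limma adjusted p 0.763 and 0.111 with the block). The other genes of this stretch, TM7SF2, MSMO1, NSDHL, HSD17B7, EBP and SC5D, lay between -0.023 and 0.053. EBP shares 36.4% of its exon bases with another annotated gene on the same strand, ENSG00000286268, so its value is uncertain. CYP51A1, the lanosterol demethylase, had the widest blocked interval of the members (-0.279 to 0.122) and only 202.6 to 248.5 normalized counts. Annotated genes on its own strand share up to 68.2% of its exon bases, so its level and change are uncertain.

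Among the genes of SREBP control, INSIG1 passed with the block. This gene (ENSG00000186480; chromosome 7, 155297776 to 155310235, GRCh38) encodes the membrane protein that retains SCAP when sterols are plentiful. Its level was 3959, 3623 and 4343 normalized counts untreated and 4535, 3895 and 4592 with isoproterenol. The isoproterenol sample was higher in each pair, yet the groups overlapped because isoproterenol replicate 2 lay below untreated replicates 1 and 3. The log2 fold change was 0.13 (SE 0.077), a change of 9.20%, with a limma adjusted p of 0.748 without the block and 0.00156 with it (SE 0.029). edgeR with the block gave an adjusted p of 0.000653 and DESeq2 with the block 0.246. Leaving out pair 1 ended the call of INSIG1 in limma with the block, and leaving out pair 2 or pair 3 did not. INSIG2, the paralog, lay at 580.6 to 646.4 normalized counts untreated and 578.5 to 663.6 with isoproterenol (log2 fold change -0.023).

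The SREBP genes themselves did not pass. SREBF1 had 1047, 961.8 and 1101 normalized counts untreated and 1098, 1069 and 1185 with isoproterenol. It was higher in each pair, with overlapping groups (log2 fold change 0.11, SE 0.064, limma adjusted p 0.721, and 0.213 with the block). SREBF2 had 11870, 13060 and 12230 normalized counts untreated and 11940, 12800 and 11930 with isoproterenol. Its groups overlapped widely, and its log2 fold change of -0.019 had a 95% interval with the block of -0.060 to 0.022. SCAP, the escort protein, was lower in each pair, at -0.077, -0.018 and -0.068 on the log2 scale (mean -0.054, limma adjusted p 0.869, and 0.495 with the block). SREBF1 shares 556 exon bases with RAI1 and SREBF2 shares 731 with SREBF2-AS1, on opposite strands in both cases.

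STARD4, a soluble carrier that moves cholesterol between membranes, had the largest SD relative to its mean of all members in both groups. It had 1039, 846.7 and 1224 normalized counts untreated and 1210, 981.4 and 1262 with isoproterenol. The samples numbered 2 were the lowest of both groups, and the groups overlapped. The log2 fold change was 0.16 (SE 0.166, limma adjusted p 0.878), and with the block the SE fell to 0.048 and the adjusted p to 0.0336 (0.699 in DESeq2). The values of the 3 pairs were 0.220, 0.213 and 0.044, and leaving out pair 1 or pair 2 ended the call with the block. Without untreated replicate 2 the unblocked log2 fold change was 0.021.

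Of the lipid synthesis targets, LPIN1 rose with the block. It encodes a phosphatidate phosphatase that makes diacylglycerol and also acts in the nucleus as a coregulator. Its level was 933.5, 868.0 and 998.3 normalized counts untreated and 1050, 1021 and 1076 with isoproterenol. LPIN1 was the single member whose isoproterenol samples all lay above the untreated ones (log2 fold change 0.17, SE 0.063, limma adjusted p 0.539, and 0.0258 with the block). Leaving out any 1 pair ended its call, and DESeq2 with the block gave an adjusted p of 0.630. SCD had 27540, 27700 and 28900 normalized counts untreated and 28450, 26700 and 28440 with isoproterenol. These groups overlapped, and the 95% interval of the change with the block was -0.043 to 0.023. FASN had a value of 0.033 and ACLY of -0.021. ACACA, the acetyl-CoA carboxylase that commits carbon to fatty acids, did not overlap between groups, at 6613 to 6772 normalized counts untreated and 6359 to 6511 with isoproterenol. Its log2 fold change of -0.057 did not pass FDR 0.05 (limma adjusted p 0.763, and 0.198 with the block).

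**Figure D3:**
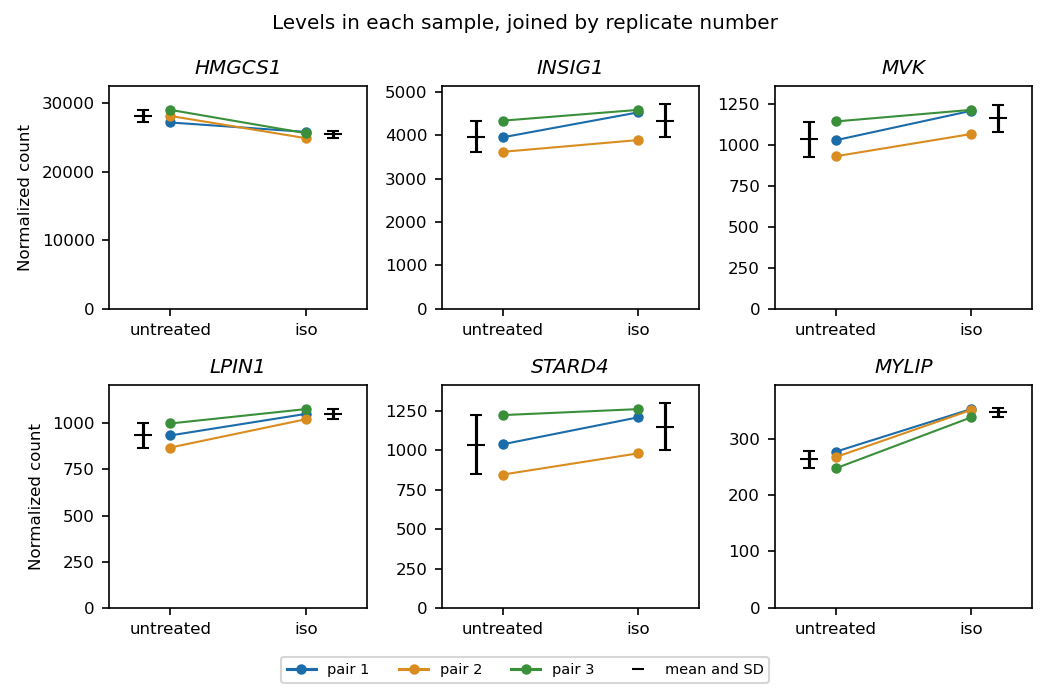
Normalized counts of HMGCS1, INSIG1, MVK, LPIN1, STARD4 and MYLIP in each of the 6 samples, with same-numbered untreated and isoproterenol (iso) samples joined by lines and the mean and SD of each group (n = 3) beside them. Each axis starts at 0: HMGCS1 falls in each pair and the others rise, and for INSIG1, MVK and STARD4 the spread between pairs is as wide as the change within them.

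For the 25 members that did not pass with the block, the log2 fold changes ran from -0.078 to 0.109. Of their 95% intervals from the blocked fit, 21 lay wholly within 0.2 of 0 on the log2 scale. The widths of these intervals also draw on the variance of other genes.

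The members varied more between replicate numbers than with isoproterenol. In the blocked fit, 20 of the 30 members (66.7%) differed between replicate numbers (limma F test, Benjamini-Hochberg adjusted p under 0.05), against 10.3% of all genes and 20.0% of the genes that averaged 500 normalized counts or more. Levels were not matched within that range, and many members lie far above its limit. The blocked SE is smaller there (0.0255 for FDPS against 0.0636 for HSD17B7), so neither share is a matched background. Members past this F test numbered 13 without untreated replicate 2 and 13 without untreated replicate 3. The sample numbered 2 was the lowest of its group in both groups in 19 members (17.0% of all genes) and the highest in both in 2, SREBF2 and SCAP (17.0%). The full order, 2 below 1 below 3 in both groups, held in 16 members (53.3%, against 5.64% of all genes). The median log2 difference between replicate 3 and replicate 2 was 0.151 over the members and 0.217 over the 19 sterol enzymes, against 0.00098 over all genes. This pair of numbers was taken after the values were seen, as the farthest apart. The median absolute size of the difference was 0.151, against 0.039 for the change with isoproterenol, whereas over all genes these were 0.118 and 0.087. In 27 of the 30 members this difference exceeded the change with isoproterenol in size, against 59.3% of all genes, a comparison that taking the farthest pair favours.

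**Figure D4:**
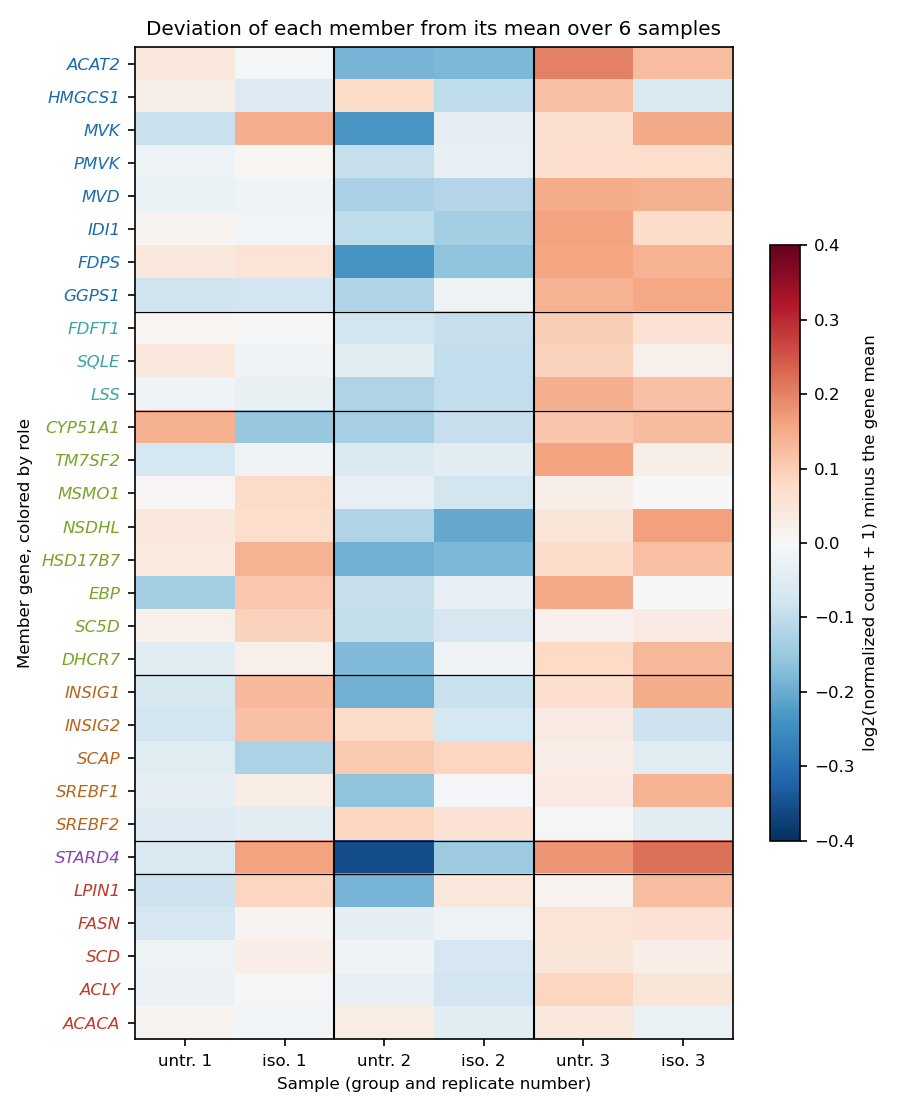
Deviation of each member's log2(normalized count + 1) from its own mean over the 6 samples (red above, blue below), with members in rows grouped by role and samples in columns ordered by replicate number. The columns of replicate 2 are mostly blue and those of replicate 3 mostly red for untreated (untr.) and isoproterenol (iso.) samples alike, and SREBF2 and SCAP show the opposite sign in replicate 2.

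Of the 20 members, 13 were sterol enzymes. FDPS had 6188, 5096 and 6704 normalized counts untreated and 6233, 5372 and 6617 with isoproterenol. Both samples numbered 2 lay well below the others, and the treated and untreated samples of a number lay close together (limma F test adjusted p 1.49e-16). ACAT2, next in strength, had 6108, 5206 and 6819 normalized counts untreated and 5911, 5237 and 6456 with isoproterenol (adjusted p 8.39e-16). MVD and LSS followed by p, with differences between replicates 3 and 2 of 0.268 and 0.241. The largest difference among members was that of STARD4 (0.447). INSIG1 differed by 0.250 (F test adjusted p 6.07e-08), near the median of the sterol enzymes.

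Other members did not share it. HMGCS1, the member with the clearest change with isoproterenol, differed by 0.043 between replicates 3 and 2 (F test adjusted p 0.279). ACACA differed by 0.016 (0.947) and INSIG2 by -0.028 (0.942). SREBF2 and SCAP had the opposite sign, -0.098 and -0.101 (F test adjusted p 0.000412 and 0.00731). SREBF2 lay at 13060 and 12800 normalized counts in the samples numbered 2 and between 11870 and 12230 in the other 4. The median deviation of the 19 enzymes from their means over 6 samples was 0.0090, -0.120 and 0.110 untreated and 0.0021, -0.093 and 0.118 with isoproterenol, whereas the median over all genes lay between 0.00051 and 0.0063. The sources used here do not say what the replicate numbers stand for.

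**Figure D5:**
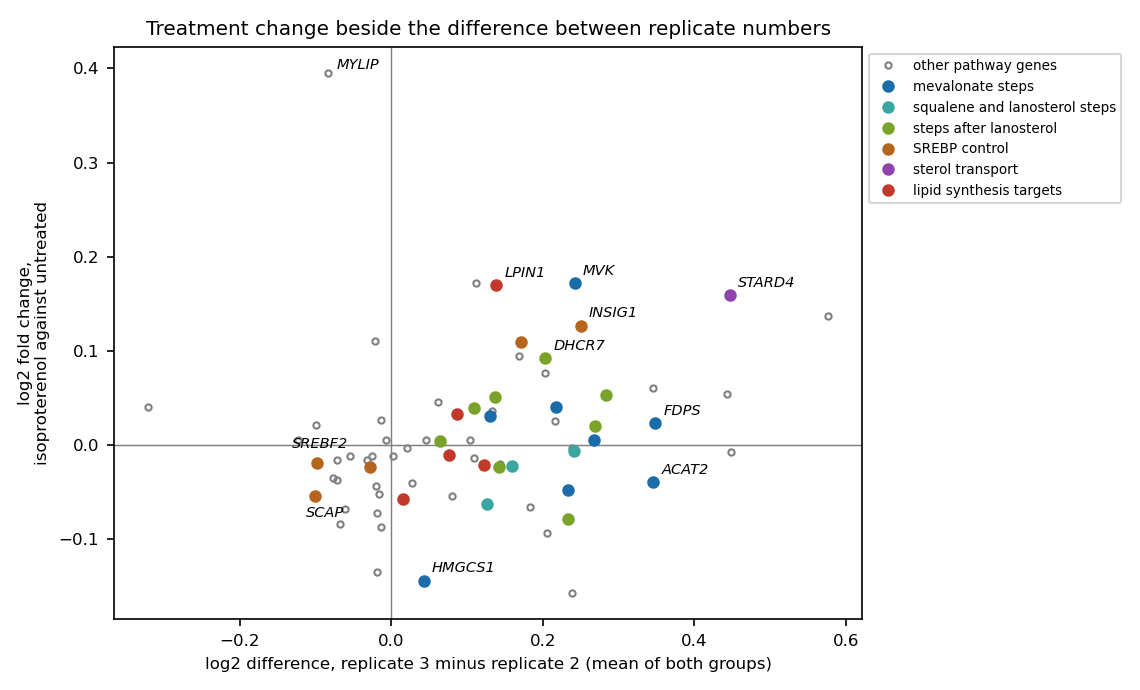
Log2 fold change with isoproterenol (vertical) against the log2 difference between replicates 3 and 2 averaged over both groups (horizontal), for the 30 members colored by role and for 42 other pathway genes (open circles). Most members lie to the right of 0 and close to 0 vertically. STARD4, MVK, INSIG1 and LPIN1 lie above 0 on both axes, HMGCS1 is lowest among the members, and MYLIP is highest of all.

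Other properties of the samples were set beside this pattern. The summed level of the 8 glutamatergic markers was 65260, 62730 and 64530 normalized counts untreated and 66860, 62000 and 65370 with isoproterenol. The sum was lowest in the samples numbered 2, but its genes differed. SLC17A6, RBFOX3 and SNAP25 were lowest there in both groups. SLC17A7 (3101 untreated and 3318 with isoproterenol) and NEUROD2 were highest there in both groups, and MAP2, SYN1 and TUBB3 were neither in both groups. In bulk RNA, fewer cells of a type and less RNA per cell cannot be told apart. Of the 5 astrocyte markers, AQP4 and S100B had values. Their sum was 159.8, 175.1 and 161.4 normalized counts untreated and 142.7, 156.8 and 134.4 with isoproterenol, highest within each group in the samples numbered 2 and without overlap between the groups. AQP4 was highest in the samples numbered 2 in both groups, whereas S100B was lowest there untreated (41.61) and highest with isoproterenol (54.2). Neither gene alone separated the groups, which did not overlap in 12.9% of all genes. Of the 6 oligodendrocyte markers, MBP, MOG, OLIG1 and OLIG2 had values and summed to 1060 to 1094 untreated and 1115 to 1181 with isoproterenol, also without overlap. Most of this sum was MBP (log2 fold change 0.13), whereas OLIG1 (-0.25, lower in 3 of 3 pairs) and OLIG2 (-0.78) had the opposite sign, and none of these markers passed FDR 0.05 (limma with or without the block). POU5F1 and LIN28A, of 5 pluripotency markers, summed to 14.36 to 28.83, and CCNB1 and BUB1, of 5 proliferation markers, to 124.8 to 152.5. The remaining markers of these lists were absent from the expression table, so their levels could not be measured. They were GFAP, ALDH1L1, SLC1A3, MAG, SOX10, NANOG, DPPA4, TDGF1, MKI67, TOP2A and CDK1. The mitochondrial share of reads was 3.44% to 4.54% and was lowest in the samples numbered 1. The part of these values in the result was not tested.

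A further 42 genes of the pathway, listed by role, were all tested. None (0 of 42) passed FDR 0.05 without the block (limma), and 2 (4.76%, against 7.68% of all genes) had an unadjusted p under 0.05. edgeR and DESeq2 without the block also called 0. With the block 1 passed (2.38%, against 4.88% of all genes), MYLIP, which encodes a ubiquitin ligase that marks lipoprotein receptors for degradation and is a target of the sterol-sensing LXR receptors. MYLIP had 276.7, 267.1 and 247.2 normalized counts untreated and 352.2, 350.6 and 337.5 with isoproterenol. The groups did not overlap, and the rise was similar in the 3 pairs. Its log2 fold change of 0.40 (SE 0.092), a change of 31.5%, exceeded that of every member, with a limma adjusted p of 0.205 without the block and 0.000967 with it. DESeq2 with the block gave an adjusted p of 0.184. ABCG1, a sterol exporter and also an LXR target, had a log2 fold change of 0.17 and an adjusted p, with the block, of 0.0453 in edgeR and 0.0632 in limma. It was higher in pairs 1 and 3 and lower in pair 2.

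Replicate numbers were compared in the same genes. Of the 42 genes, 5 (11.9%) passed the F test, close to the 10.3% of all genes. They were FBXW7 and TMEM97 among the 10 genes of SREBP processing and turnover and ACSS2, ME1 and ELOVL5 among the 8 of fatty acid synthesis. ACSS2, which makes acetyl-CoA from acetate, differed by 0.443 between replicates 3 and 2, and ME1, which supplies NADPH for lipid synthesis, by 0.449. The list of 14 genes of sterol transport and storage and that of 10 genes of the isoprenoid branches held 0 such genes in limma and in edgeR (0 and 1 at an unadjusted p under 0.05 in limma). The difference between the lists was not tested.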

How the data were processed

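The authors selected poly(A) RNA and, per the labels, made libraries with a directional kit. They aligned reads to GRCh38 with STAR, counted them per gene with featureCounts and normalized them with DESeq2. The strand setting of the counting and the annotation release are not given in the sources used here. The deposited signal is a count divided by the size factor of its sample, and whole reads were recovered for 100.0% of values (tolerance 0.02 reads). Genes with more than 5 reads in at least 4 samples were tested (18130, with 1693 removed). The main test was limma 3.58.1 (in R 4.3.3; trend and robust options) of log2(normalized count + 1), two-sided, with Benjamini-Hochberg adjustment over the tested genes. edgeR 4.0.16 and DESeq2 1.42.0 on the recovered reads were alternatives, each with and without replicate number as a block. The limma and DESeq2 fits with and without the block, and edgeR with it, were also run on simulated counts. The simulation gave every gene the same dispersion, so it does not show how the fits perform on these data.

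The titles give both groups the numbers 1 to 3. Over 11587 genes, the deviations from the group mean correlated at 0.269, 0.493 and 0.388 between samples sharing a number. Each exceeds 0.1, so samples were treated as paired by number. Levels per kilobase use the merged exons of GENCODE release 44, and overlaps come from the same release. The members and lists were chosen with earlier results of these data known. Per-sample values are given for INSIG1, SREBF1, SREBF2, HMGCS1, SQLE, SCD and each member or listed pathway gene past FDR 0.05 in limma or, for members, with an unadjusted p under 0.05. ACACA, MMAB, FDPS, ACAT2 and ABCG1 were added after their values were seen.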

Additional observations from a re-analysis of the deposited data

How the results depend on the processing

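The replicate block moved the counts most. Members past FDR 0.05 numbered 0 without the block, 5 with the replicate block in limma and in edgeR and 1 in DESeq2, and in blocked fits added after the data were seen 1 without pair 1, 2 without pair 2 and 4 without pair 3. With the replicate block, members at an unadjusted p under 0.05 numbered 10 in limma, 9 in edgeR and 5 in DESeq2, and 8, 7 and 7 without pairs 1, 2 and 3, against 3 without it. The other pathway genes past FDR 0.05 numbered 1 in limma and 2 in edgeR with the replicate block, and 1, 2 and 1 without pairs 1, 2 and 3. Leaving out 1 sample gave 0 members past FDR 0.05 each time, 1 (without isoproterenol replicate 3) to 7 (without untreated replicate 3) at an unadjusted p under 0.05, medians of -0.0263 (isoproterenol replicate 3 left out) up to 0.0551 (untreated replicate 3 left out), and 13 (without untreated replicate 2 or 3) to 20 members differing between replicate numbers, of which 8 passed in all 13 settings. With 1 sample left out the change of SREBF2 ran from -0.0526 to 0.0196 and that of SCD from -0.0252 to 0.0208. SREBF2 reversed without untreated replicate 2 (0.020) and SCD without untreated replicate 3 (0.012), without isoproterenol replicate 2 (0.021) and with the replicate block without pair 2 (0.012). Neither gene passed in any setting. Among the members and the other pathway genes, the block in limma changed the calls of HMGCS1, INSIG1, MVK, LPIN1, STARD4 and MYLIP alone, and that of ABCG1 in edgeR and in limma without pair 2. Of the 8 immediate early genes, 1 passed without the block and 7 with it. TMM scaling, pseudocounts of 0.5 and 5, no filter and a minimum mean of 50 changed no call of a member or other pathway gene, and the causes of the changes were not tested. The parts of depth and of the spread between replicates in the precision were not separated.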
